A study of Mus musculus with 10 samples.

Results

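The 8 genes described here were *Alas1*, *Alad*, *Uros*, *Urod*, *Cpox*, *Ppox* and *Fech*, which encode 7 enzymes of heme synthesis, and *Hmox1*, which encodes the inducible enzyme of heme breakdown. They were chosen by name and make up 8 of the 31053 genes counted in each library. The libraries came from 10 sections of frozen mouse tissue, 10 µm thick, measured by Visium spatial transcriptomics, in which a spot of the slide captures the polyadenylated RNA of the small region of tissue above it and each captured molecule is counted once by its unique molecular identifier (UMI). A spot can hold several cells of different types.

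The sections came from 7 tissues, all labelled as hepatoblastoma, a liver cancer of early childhood. NEJ146 gave 4 adjacent sections and NEJ634, NEJ687, NEJ723, NEJ638, NEJ654 and NEJ677 gave 1 section each. The study names NEJ146, NEJ634, NEJ687 and NEJ723 as ABC-Myc tumours and NEJ638, NEJ654 and NEJ677 as normal livers, which the sample labels do not state, so no test was made between these sets. ABC-Myc mice are C57BL/6J animals that carry Alb-Cre, the Cre recombinase under the mouse albumin enhancer and promoter, and CAG-STOP flox/flox-Myc, a human c-MYC under the CAG promoter behind a floxed STOP cassette. The human transgene starts in cells that have made albumin, and tumours arise in newborn mice. The tumour mice carry 1 copy of each allele (Alb-Cre +/wt, CAG-MYC +/wt). The methods name as normal controls littermates that lack at least 1 of the alleles (Alb-Cre wt/wt with CAG-Myc +/wt, Alb-Cre +/wt with CAG-MYC wt/wt, or wt/wt at both), without saying which of these the 3 livers were. The ages of the 7 animals were not given in the sources used here. RNA of *Alb*, the albumin gene, was present in every tissue. It stood at 7839 to 13131 UMIs per 1000000 UMIs of the tissue spots (CPM) in the 4 tissues named tumours. In the 3 named livers it stood at 51663 to 85700 CPM. *Afp*, the fetal albumin homologue, stood at 2023 CPM or above in the named tumours and at 9.63 CPM or below in the named livers. Libraries held 61627315 to 117556249 UMIs, and the 1890 to 4878 tissue spots of a section had a median of 12134 to 28926 UMIs. NEJ146 stands apart: its label gives total RNA where the others give polyA RNA, its tissue spots were taken as those with at least 8000 UMIs, and its mitochondrial genes held 6.78 to 7.22% of UMIs against 2.46 to 3.86% elsewhere. For NEJ146 tissue and library preparation cannot be told apart.

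Heme is built in a chain of steps that begins and ends in the mitochondrion. The first step joins glycine to succinyl-CoA and is catalysed by ALAS1 in most cells and by ALAS2 in erythroid cells, which use heme for haemoglobin. In hepatocytes much of the heme goes to cytochromes P450, and *Alas1* is repressed by heme and induced by fasting signals and drugs. ALAD, UROS and UROD act in the cytosol, CPOX and PPOX act at the mitochondrion, and FECH inserts iron into protoporphyrin. HMOX1 opens the heme ring in macrophages that clear old red cells and in many cells under oxidative stress. *Alas2* is given below for comparison.

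By GENCODE M21 on GRCm38, *Alas1* lies at chr9:106233455-106248654, *Alad* at chr4:62509169-62519918, *Uros* at chr7:133686243-133710072 and *Urod* at chr4:116989965-116994413, all on the minus strand. *Cpox* lies at chr16:58670292-58717636 on the plus strand, *Ppox* at chr1:171275990-171281186 on the minus strand and *Hmox1* at chr8:75093621-75100589 on the plus strand. Windows of 250 bases before a RefSeq start (GRCm38.p6) were found for 6 of the 8 genes and for *Alas2*, 10 windows in all. The 5 shown here set the ubiquitous first enzyme beside the erythroid one and hold every GATAA found. They are the *Alas1* window chr9:106247731-106247980 (minus strand), the downstream *Uros* window chr7:133702501-133702750 and the upstream *Uros* window chr7:133709296-133709545 (both minus strand), the *Cpox* window chr16:58669958-58670207 (plus strand) and, for contrast, the *Alas2* window chrX:150547167-150547416 (plus strand). Capitals mark GATAA on either strand (read as TTATC where it lies on the other one), the core of the motif that GATA factors bind; the palindrome bound by nuclear respiratory factor 1; and CACGTG, an E-box.
Alas1: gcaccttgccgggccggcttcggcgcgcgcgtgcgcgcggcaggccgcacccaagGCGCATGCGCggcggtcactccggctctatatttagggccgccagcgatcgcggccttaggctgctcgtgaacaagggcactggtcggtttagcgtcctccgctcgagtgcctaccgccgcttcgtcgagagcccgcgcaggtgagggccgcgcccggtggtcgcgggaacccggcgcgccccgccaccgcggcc
Uros, upstream start: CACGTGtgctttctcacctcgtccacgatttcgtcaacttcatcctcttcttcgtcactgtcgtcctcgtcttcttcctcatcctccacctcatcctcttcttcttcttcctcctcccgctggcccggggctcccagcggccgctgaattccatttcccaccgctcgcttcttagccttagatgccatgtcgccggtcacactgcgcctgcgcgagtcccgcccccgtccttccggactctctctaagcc
Uros, downstream start: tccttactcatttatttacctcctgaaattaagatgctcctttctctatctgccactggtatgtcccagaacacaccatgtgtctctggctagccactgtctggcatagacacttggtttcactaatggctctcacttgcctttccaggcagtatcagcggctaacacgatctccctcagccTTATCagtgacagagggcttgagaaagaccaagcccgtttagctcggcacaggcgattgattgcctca
Cpox: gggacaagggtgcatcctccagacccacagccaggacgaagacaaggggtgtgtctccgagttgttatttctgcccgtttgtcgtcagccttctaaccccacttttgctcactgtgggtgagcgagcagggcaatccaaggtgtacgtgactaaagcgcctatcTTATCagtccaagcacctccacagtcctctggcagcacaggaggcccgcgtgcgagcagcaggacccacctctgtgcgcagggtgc
Alas2: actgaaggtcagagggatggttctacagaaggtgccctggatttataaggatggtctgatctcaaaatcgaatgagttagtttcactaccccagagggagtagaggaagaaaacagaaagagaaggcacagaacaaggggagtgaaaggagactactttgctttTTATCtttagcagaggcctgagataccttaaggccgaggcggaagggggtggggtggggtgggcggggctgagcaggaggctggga

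TTATC began at position -86 from the start in *Alas2* and *Cpox* and at -68 in the downstream window of *Uros*, and 22.6% of all 32851 windows of this length held GATAA on 1 of the strands. The nuclear respiratory factor 1 palindrome, at position -195 of *Alas1*, stood in 0.782% of all windows and in no other of the 10. CACGTG stood in both *Alad* windows, in *Urod* and in the upstream *Uros* window, against 6.02% of all windows. CCACCC (28.1% of all windows) was found in *Alas2* and in the upstream *Alas1* window, which is not shown. TATAAA (12.4%) was found in *Alas2* and TGACTCA (4.46%) in none of the 10. All 6 motifs were searched on both strands and as exact letters, so a missing match says only that these letters were absent from the window. UMIs were counted at the 3′ end of transcripts and do not tell which start was used.

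The level of each gene was then compared between tissues. *Alas1* varied most. It stood at 856 CPM in NEJ638 (95% exact Poisson interval 848 to 864), at 144 CPM in NEJ677, at 98.3 ± 7.43 CPM over the NEJ146 sections (SD, n = 4), at 90.7 CPM in NEJ687, at 69.4 CPM in NEJ654, at 66.7 CPM in NEJ634 and at 35.2 CPM in NEJ723. The range over the tissues was 24.3-fold, and NEJ638 stood 5.95-fold above the next tissue, although NEJ654 and NEJ677 carry the same name of normal liver. In this order the neighbours NEJ146 and NEJ687, and NEJ654 and NEJ634, were not separated. The limit, on the log2 scale, was 2 times √2 times the larger of the SD between NEJ146 sections and the counting error. Among the 8021 genes whose mean reached 10 CPM, 13 had a highest tissue at least 5-fold above the next one, and in 3 of these, *Thrsp*, *Alas1* and *Serpina3c*, that tissue was NEJ638. The 8 genes had a median range of 2.50-fold over the tissues, against 2.41-fold for all 8021 genes.

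*Alad*, which joins 2 molecules of aminolevulinate into porphobilinogen, stood at 182 CPM in NEJ654, 178 CPM in NEJ638 and 132 CPM in NEJ677. It stood at 72.6 ± 6.60 CPM over the NEJ146 sections (SD, n = 4), 72.0 CPM in NEJ687, 66.1 CPM in NEJ723 and 65.8 CPM in NEJ634. The 3 named livers lay above the 4 named tumours, the lowest of the former 1.82-fold above the highest of the latter, and the 4 tumours were not separated from each other. *Fech* had the same arrangement, which read 104 CPM in NEJ654, 118 CPM in NEJ638 and 122 CPM in NEJ677, against 68.9 CPM in NEJ687, 55.4 ± 1.55 CPM over the NEJ146 sections (SD, n = 4), 51.7 CPM in NEJ723 and 48.6 CPM in NEJ634. The gap between the sets was 1.51-fold. Of all 8021 genes, 18.1% lay higher in all 3 named livers than in all 4 named tumours and 44.1% lay lower in all 3, so neither position is rare.

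*Hmox1* took the opposite order. It stood at 46.5 ± 3.33 CPM over the NEJ146 sections (SD, n = 4), 40.7 CPM in NEJ687, 29.0 CPM in NEJ723 and 23.8 CPM in NEJ634, and at 11.6 CPM in NEJ638, 10.3 CPM in NEJ677 and 9.06 CPM in NEJ654. The sets did not overlap and stood 2.06-fold apart. Within the named livers, the neighbours NEJ638 and NEJ677, and NEJ677 and NEJ654, were not separated. Of the 8 genes, *Hmox1* alone lay lower in the 3 named livers and *Alad* and *Fech* higher, while the other 5 overlapped. These orders rest on the total UMIs of each tissue. With trimmed mean of M-values (TMM) scaling, which moved the named livers up against the named tumours by 0.40 on the log2 scale on average, *Uros* and *Urod* also lay higher in all 3 named livers, and *Hmox1* still lay lower, by 1.45-fold. With that scaling 30.4% of the 8021 genes lay higher and 32.0% lower.

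The middle and late enzymes differed less. *Urod*, which makes coproporphyrinogen, ran from 47.1 CPM in NEJ723 to 66 CPM in NEJ638 with no pair of neighbours separated. *Uros*, which closes the porphyrin ring, ran from 7.42 CPM in NEJ723 to 18.5 CPM in NEJ654, and NEJ723 was separated from NEJ634, the next tissue at 11.6 CPM. *Cpox* was highest in NEJ687 at 73.3 CPM and lowest in NEJ677 at 43.6 CPM. *Ppox* was likewise highest in NEJ687, at 40.7 CPM, and stood at 19.5 ± 0.849 CPM over the NEJ146 sections (SD, n = 4) and 19.6 CPM in NEJ677.

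*Alas2*, the erythroid first enzyme, did not follow the other erythroid genes in the named livers. It stood at 53.7 CPM in NEJ687 and at 50.7 CPM in NEJ677, values that were not separated, and at 38.1 ± 2.14 CPM over the NEJ146 sections (SD, n = 4), 18.6 CPM in NEJ723, 16.5 CPM in NEJ654, 12.7 CPM in NEJ638 and 5.31 CPM in NEJ634. In NEJ677 *Gata1*, the erythroid transcription factor, stood at 0.0764 CPM and *Hba-a1*, an adult alpha-globin gene, at 41.3 CPM. In NEJ687 the same genes stood at 9.12 and 1608 CPM. *Hba-a1* and *Hba-a2* are nearly identical, so their UMIs cannot be safely divided between the copies.

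**Figure D1:**
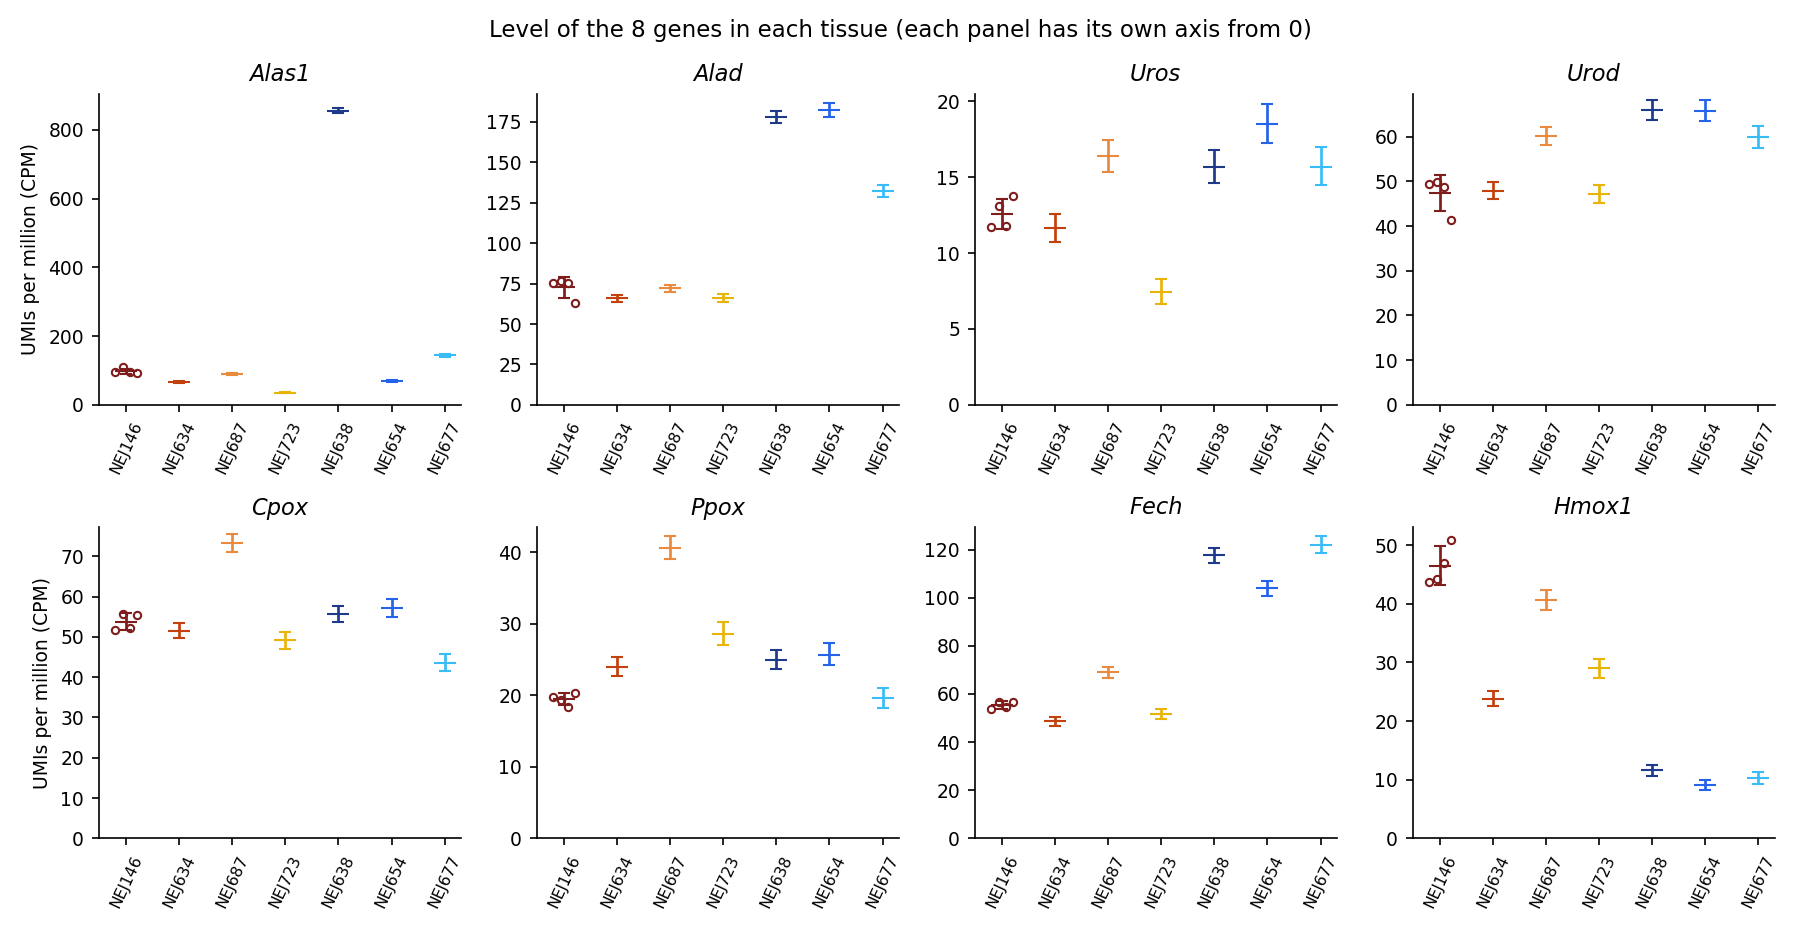
UMIs per 1000000 UMIs of the tissue spots (vertical axis, a separate scale from 0 in each panel) for the 8 genes in the 7 tissues. For NEJ146 the open circles are the 4 sections and the bar is their mean ± SD; for the other tissues the bar is the value of 1 section with its 95% exact Poisson interval, which covers counting error only. *Alas1* stands at 856 CPM in NEJ638 alone, *Alad* and *Fech* are higher in NEJ638, NEJ654 and NEJ677, and *Hmox1* is lower there.

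For each gene the 3 genes whose levels followed it most closely over the 7 tissues were noted, as a description by Pearson's r of log2(CPM + 1) over 7 points that share depth and tissue makeup. *Hmox1* was nearest to *Hbb-bt* (r = 0.997), *Dtnb* (0.995) and *Hba-a1* (0.990). *Alas1* was nearest to *Raph1* (0.962), *Rcan1* (0.948) and *Dnajb9* (0.936), *Alad* to *Naprt* (0.996), *Rilp* (0.993) and *Ehd3* (0.993), and *Fech* to *Cdk5rap3* (0.994), *Egfr* (0.991) and *Tm7sf3* (0.990). *Uros* was nearest to *Gltpd2* (0.984), *Slc22a18* (0.982) and *Saa4* (0.979), *Urod* to *Mon1a* (0.995), *Edem1* (0.990) and *Nxpe2* (0.986), *Cpox* to *Dennd6a* (0.992), *Mpnd* (0.954) and *Gypc* (0.943), and *Ppox* to *Insr* (0.978), *Slc39a1* (0.977) and *Prodh2* (0.966).

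To ask which of these genes followed erythroid RNA within a tissue, the spots of each section were sorted by *Hba-a1* within 10 strata of depth, and the 25% richest in *Hba-a1* was set against the remaining spots. UMIs were summed for each tissue and class, so tissues and not spots were the replicates of the edgeR quasi-likelihood test, with tissue as a block and Benjamini-Hochberg adjustment over all genes tested. NEJ146, NEJ634, NEJ687 and NEJ723 entered. The 3 named livers had an *Hba-a1* UMI in 12.6 to 22.4% of their spots, under the 25% required, and stayed out. CPM in this and the following splits is on TMM-scaled library sizes, so it is to be read between the classes of a tissue and not set against the levels above or between tissues. A higher value of a class can mean more cells of a type or more RNA per cell, which sums over spots do not separate.

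*Fech* and *Hmox1* rose in the spots rich in *Hba-a1*, and the other 6 genes did not pass the test. *Fech* stood at 83.0 CPM in the rich spots against 60.8 CPM in the rest of NEJ146, at 93.6 against 60.0 CPM in NEJ687, at 58.2 against 44.8 CPM in NEJ723 and at 51.1 against 42.6 CPM in NEJ634. The fitted difference was 0.44 on the log2 scale (SE 0.061, edgeR adjusted p = 0.016), higher in 4 of 4 tissues. *Hmox1* stood at 70.9 against 50.5 CPM in NEJ146, 37.5 against 23.5 CPM in NEJ723, 47.3 against 38.1 CPM in NEJ687 and 25.9 against 20.6 CPM in NEJ634, a fitted log2 difference of 0.45 (SE 0.064, edgeR adjusted p = 0.017), also higher in 4 of 4 tissues. Of the 8 genes, 2 were thus called higher and 0 lower, where 1.04% of all 12698 genes were called higher and 0.063% lower, and the median log2 difference was 0.34 over the 8 genes and -0.01 over all genes.

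*Ppox* had the largest fitted log2 difference of the 8, 0.64 (SE 0.139), with an edgeR adjusted p of 0.11. Its tissues were far apart, at log2 differences of 1.14 in NEJ687 (68.2 against 31.0 CPM), 0.67 in NEJ146, 0.55 in NEJ723 and 0.09 in NEJ634. *Uros* was higher in 4 of 4 tissues by 0.51 (edgeR adjusted p = 0.137), *Cpox* by 0.25 (0.15) and *Urod* by 0.23 (0.19), all on the log2 scale and none past the threshold. *Alad* differed by 0.13 (edgeR adjusted p = 0.61). *Alas1* differed by -0.06 (edgeR adjusted p = 0.94) and went both ways, with 87.6 CPM in the rich spots against 128 CPM in the rest of NEJ146, a log2 difference of -0.55, and a log2 difference of 0.30 in NEJ634. In the 4 sections of NEJ146, on total UMIs, the *Alas1* difference was -0.35, -0.68, -0.57 and -0.49.

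*Alas2* rose with *Hba-a1* by 2.71 on the log2 scale (SE 0.226, edgeR adjusted p = 0.00141). Of 12 genes of mitochondrial supply and carriers, 1 rose, *Slc25a37*, the erythroid iron importer mitoferrin, by 1.04 (edgeR adjusted p = 0.00386). Of 10 tested genes of heme breakdown, binding and export, 1 rose, *Blvrb*, a biliverdin reductase, by 0.47 (edgeR adjusted p = 0.0247). None of 9 regulators of *Alas1* or *Hmox1* and none of 10 genes listed as heme proteins and their partners passed the test. The smallest adjusted p-values (edgeR) of these lists were 0.607 for *Nrf1* and 0.353 for *Cyp2c29*.

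Of 15 erythroid markers tested, 14 rose, the exception being *Tfrc* at 0.09 on the log2 scale. Among the 14 were *Hba-a1*, which set the split, and *Hba-a2*, which is nearly identical to it. The summed level of the markers was 3.91- to 9.88-fold higher in the rich spots of each tissue. That sum holds the splitting gene, so its rise was in part fixed by the split. None of 14 macrophage markers passed the test, with a summed level 1.01- to 1.21-fold that of the other spots. None of 7 markers of the neutrophil lineage passed either, although their median log2 difference was 0.91 and their summed level 1.17- to 2.90-fold higher. The part of these cells in the *Fech* and *Hmox1* differences was not tested. In NEJ146, where *Alas1* was lower in the rich spots, hepatocyte markers also summed lower there in each section. Markers of hepatocytes around the central vein stood at 256 to 453 CPM of total UMIs in the rich spots, against 438 to 597 CPM. Their part in the *Alas1* difference was not tested. Without NEJ723 both calls were lost, at log2 differences of 0.45 for *Fech* (edgeR adjusted p = 0.094) and 0.39 for *Hmox1* (0.062), and 78 genes instead of 132 rose. With other erythroid genes in place of the globins, which let 5 tissues in, edgeR called none of the 8 genes (*Fech* 0.34, adjusted p = 0.104; *Ppox* 0.59, 0.097; *Hmox1* 0.22, 0.269) and 92 genes rose. The tissue let in was the named liver NEJ677, where 47.4% of spots held a UMI of this list and 47.2% a UMI of *Alas2*, a member of it. The level of *Alas2* did not follow the other erythroid genes in NEJ677. The part of this tissue in the lost calls was not tested. The list was also used in the same 4 tissues as above, a setting chosen after the data were seen. There *Fech* (0.41, edgeR adjusted p = 0.021) and *Ppox* (0.68, 0.047) were called while *Hmox1* was not (0.25, 0.129). In that fit 0.977% of all genes were called higher and 0.0394% lower.

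The next split was made by *Cyp2e1*, which encodes an ethanol-oxidising cytochrome P450 that hepatocytes around the central vein make. NEJ146, NEJ634, NEJ687, NEJ638, NEJ654 and NEJ677 entered. NEJ723 had a *Cyp2e1* UMI in 1.92% of its spots and stayed out, and NEJ687 entered with 26.9%. All 5 pericentral markers, *Cyp2e1* included, were higher in the rich spots, and the periportal markers summed to 0.425- to 0.484-fold the level of the other spots in the 3 named livers. In the named tumours the periportal sum did not run against *Cyp2e1* in the same way, at 1.17-fold in NEJ146, 1.29-fold in NEJ634 and 0.966-fold in NEJ687.

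*Alas1* and *Alad*, the first and second enzymes, rose in the spots rich in *Cyp2e1*. *Alas1* stood at 157 CPM in the rich spots against 82.8 CPM in the rest of NEJ146, at 79.1 against 42.7 CPM in NEJ634 and at 89.4 against 72.0 CPM in NEJ687. In the named livers it stood at 1033 against 855 CPM in NEJ638, 225 against 161 CPM in NEJ677 and 95.8 against 76.5 CPM in NEJ654. The fitted log2 difference was 0.53 (SE 0.101, edgeR adjusted p = 0.0405), higher in 6 of 6 tissues. The log2 difference was 0.27 in NEJ638, the tissue with the highest *Alas1* level, and 0.32 in NEJ654, the named liver with the lowest.

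*Alad* stood at 242 against 169 CPM in NEJ638, 267 against 196 CPM in NEJ654 and 218 against 145 CPM in NEJ677. In NEJ146 it stood at 102 against 66.3 CPM, in NEJ634 at 57.6 against 48.7 CPM and in NEJ687 at 63.7 against 59.7 CPM. The fitted log2 difference was 0.42 (SE 0.075, edgeR adjusted p = 0.0338), higher in 6 of 6 tissues, with the smallest value, 0.09, in NEJ687. Of the 8 genes, 2 were called higher and 0 lower, against 1.19% and 0.278% of all 12568 genes, and the median log2 difference was 0.17 over the 8 genes and -0.01 over all genes.

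The other 6 genes did not pass the test. *Urod* and *Fech* were above 0 in 6 of 6 tissues, by 0.18 (edgeR adjusted p = 0.078) and 0.15 (0.20) on the log2 scale. *Cpox* ran from -0.21 in NEJ146 to 0.58 in NEJ654, with a fitted value of 0.21 (edgeR adjusted p = 0.34). *Ppox* and *Uros* stood at -0.05 and 0.07. *Hmox1* stood at -0.21 (edgeR adjusted p = 0.51), with -0.90 in NEJ654, -0.50 in NEJ638, -0.46 in NEJ677 and -0.39 in NEJ146 but 0.05 in NEJ687 and 0.49 in NEJ634. *Alas2* stood at a fitted 0.02 and did not pass. Its spot correlations with *Cyp2e1*, given below, differed in sign between tissues.

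Of 10 genes listed as heme proteins and their partners 5 rose. Beside *Cyp2e1*, which set the split, these were *Cyp1a2*, another pericentral P450, by 1.73 (edgeR adjusted p = 0.00814), *Cyp2c29* by 1.38 (0.0238), *Cyb5a*, cytochrome b5, by 0.53 (0.0143) and *Por*, a reductase without heme that feeds electrons to P450 enzymes, by 0.52 (0.0316), all on the log2 scale. *Blvrb* was the 1 gene of 10 of heme breakdown, binding and export that rose, by 0.87 (edgeR adjusted p = 0.0104). None of 12 supply genes and 9 regulators passed, and *Nr1i3*, the nuclear receptor CAR that drives P450 genes, had the smallest adjusted p of the regulators (0.61, edgeR adjusted p = 0.0738). In NEJ146 and NEJ634, where the *Alas1* difference was largest, other markers moved with the split. In NEJ146 the rich spots held 1.47-fold the summed hepatocyte markers, 1.5-fold the bile duct markers, 1.70-fold the stromal markers, 0.631-fold the tumour markers and 0.432-fold the erythroid markers. In NEJ634 these sums were 0.855-, 0.625-, 0.772-, 0.701- and 1.47-fold in the same order. Their part in the *Alas1* difference was not tested.

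Leaving out NEJ638, NEJ654 or NEJ677 ended both calls, at log2 differences of 0.60, 0.58 and 0.54 for *Alas1* (edgeR adjusted p = 0.084, 0.094 and 0.116) and 0.41, 0.41 and 0.38 for *Alad* (0.124, 0.117 and 0.115). The *Alas1* call also ended without NEJ634 (0.46, edgeR adjusted p = 0.076) or NEJ687 (0.58, 0.056). In a fit of the 3 named livers alone, chosen after the data were seen, 7.15% of 11911 genes were called higher and 7.6% lower. There *Alad* (0.52, SE 0.044, edgeR adjusted p = 2.03e-06), *Cpox* (0.45, SE 0.061, 1.71e-04), *Alas1* (0.36, SE 0.050, 2.09e-04) and *Urod* (0.18, 0.0204) rose and *Hmox1* fell (-0.60, SE 0.105, 0.00134). *Fech* stood at 0.10 (0.123). In these livers the macrophage markers summed to 0.608- to 0.798-fold in the rich spots, and their part in the *Hmox1* difference was not tested. In a fit of NEJ146, NEJ634 and NEJ687 alone edgeR called none of the 8 genes and 9 genes in all.

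**Figure D2:**
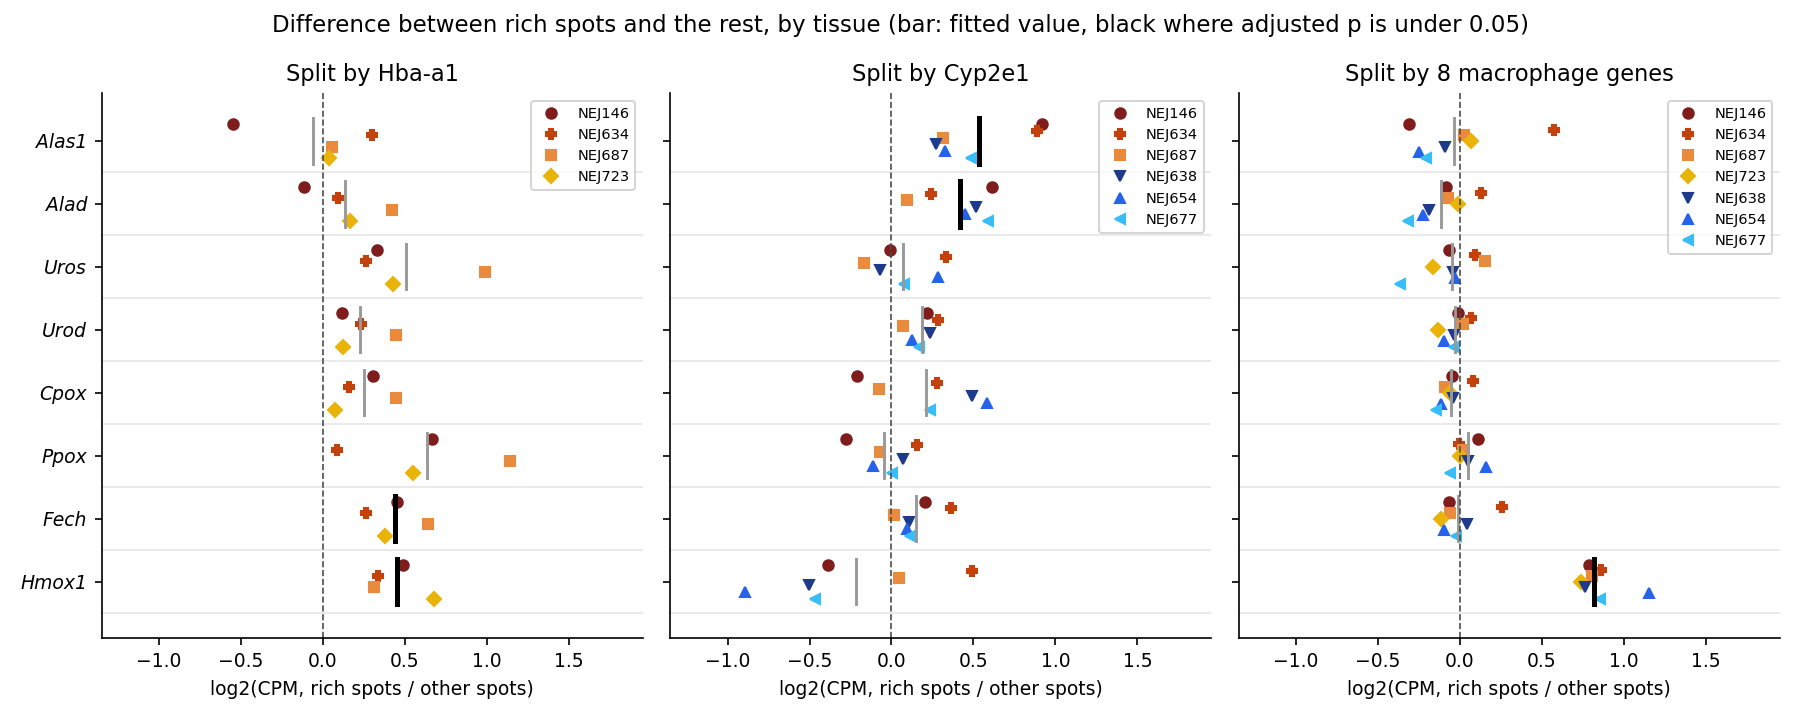
Log2 difference in CPM between the rich 25% of spots and the other spots of each tissue (horizontal axis), for the 8 genes and the splits by *Hba-a1*, *Cyp2e1* and the sum of 8 macrophage genes. Points are tissues, the vertical bar is the fitted difference, and it is black where the edgeR adjusted p is under 0.05: *Fech* and *Hmox1* with *Hba-a1*, *Alas1* and *Alad* with *Cyp2e1*, and *Hmox1* with the macrophage genes.

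The last split used 8 macrophage genes, *Clec4f*, *Vsig4*, *Cd5l*, *Adgre1*, *C1qa*, *C1qb*, *C1qc* and *Csf1r*, and all 7 tissues entered. *Hmox1* was the only gene of the 8 that passed the test. It stood at 70.3 CPM in the rich spots against 40.7 CPM in the rest of NEJ146, 52.3 against 29.9 CPM in NEJ687, 34.2 against 20.5 CPM in NEJ723 and 29.2 against 16.1 CPM in NEJ634. In the named livers it stood at 19.9 against 11 CPM in NEJ677, 18.7 against 8.38 CPM in NEJ654 and 18.1 against 10.7 CPM in NEJ638. The fitted log2 difference was 0.82 (SE 0.036, edgeR adjusted p = 2.28e-07), higher in 7 of 7 tissues, from 0.73 in NEJ723 to 1.15 in NEJ654. Of the 8 genes, 1 was called higher and 0 lower, against 4.26% and 0.253% of all 12658 genes. In NEJ723 *Clec4f*, the defining gene of Kupffer cells, the resident macrophages of the liver, stood at 0.275 CPM, against 75.2 to 152 CPM in the other tissues, so the split there rested on the remaining macrophage genes.

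None of the 7 synthesis enzymes passed the test, with *Alad* at -0.11 (edgeR adjusted p = 0.25) and *Alas1* at -0.04 (0.92). *Alas1* was 0.57 higher on the log2 scale in the macrophage-rich spots of NEJ634 and lower by 0.31, 0.25 and 0.21 in those of NEJ146, NEJ654 and NEJ677. In a fit of the 3 named livers alone, 2.49% of the genes were called higher and 1.21% lower. There *Hmox1* rose (0.92, edgeR adjusted p = 7.74e-06) and *Alad* (-0.22, 4.42e-04) and *Alas1* (-0.15, 0.0114) fell. On total UMIs, the pericentral markers of the rich spots summed to 3728 against 4457 CPM in NEJ638, 4729 against 6793 CPM in NEJ654 and 2610 against 4717 CPM in NEJ677. The periportal markers summed higher in the rich spots of each. Their part in the *Alad* and *Alas1* differences was not tested. Without NEJ634, *Alad* was also called lower (-0.15, edgeR adjusted p = 0.0145), in a fit that called 195 of 12569 genes lower where the fit of all 7 tissues called 32.

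Of 10 tested genes of heme breakdown, binding and export, 3 rose with the macrophage genes: *Slc40a1*, the iron exporter ferroportin, by 0.34 (edgeR adjusted p = 1.09e-04), *Slc48a1*, a heme transporter of lysosomes, by 0.19 (0.0415) and *Blvra*, a biliverdin reductase, by 0.14 (0.0389), all on the log2 scale. *Cybb*, the heme-bearing subunit of the phagocyte oxidase, rose by 0.78 (edgeR adjusted p = 1.18e-05). All 14 macrophage markers rose, 8 of them by the choice of the split, and their summed level was 1.92- to 2.50-fold higher. Of 7 neutrophil markers 6 rose as well, and so did 3 of 15 erythroid markers, *Slc4a1* and *Rhag* among them, and their part in the *Hmox1* difference was not tested.

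Sorting the spots of each tissue into 5 equal classes showed how the levels ran between the poorest and the richest spots. CPM of these classes is on total UMIs without TMM scaling, so it is not set against the CPM of the splits. *Hmox1* ran with the macrophage genes from 28 to 72.6 CPM in NEJ146, 23.4 to 61.0 CPM in NEJ687, 18.6 to 43.4 CPM in NEJ723, 12.6 to 36.7 CPM in NEJ634, 7.81 to 18.7 CPM in NEJ638, 6.05 to 16.6 CPM in NEJ677 and 5.61 to 16.6 CPM in NEJ654. *Alas1* ran with *Cyp2e1* from 61.1 to 159 CPM in NEJ146, 45.1 to 105 CPM in NEJ634, 113 to 197 CPM in NEJ677, 753 to 983 CPM in NEJ638, 58.7 to 86.1 CPM in NEJ654 and 82.7 to 110 CPM in NEJ687. The ratio of the richest to the poorest class was highest in NEJ146 and NEJ634. *Alad* ran with *Cyp2e1* from 135 to 234 CPM in NEJ638, 138 to 242 CPM in NEJ654, 107 to 187 CPM in NEJ677 and 58.4 to 103 CPM in NEJ146, and from 61.8 to 74.6 CPM in NEJ634 and 70.4 to 77.5 CPM in NEJ687.

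The classes by *Hba-a1* were less even. *Fech* in NEJ146 stood at 52.9, 50.3, 49.6 and 50.2 CPM in the first 4 classes and at 74.2 CPM in the richest one, and ran from 55.0 to 101 CPM in NEJ687, 42.5 to 66.6 CPM in NEJ723 and 44.5 to 58.2 CPM in NEJ634. *Ppox* ran from 26.1 to 75.5 CPM in NEJ687, 21.5 to 40.9 CPM in NEJ723 and 15.6 to 28.4 CPM in NEJ146 but only from 24.9 to 27.5 CPM in NEJ634, the tissue with the least *Hba-a1* of the 4 (195 CPM). *Alas1* ran down in NEJ146 from 121 to 71.9 CPM and up in NEJ634 from 56.8 to 81.4 CPM.

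**Figure D3:**
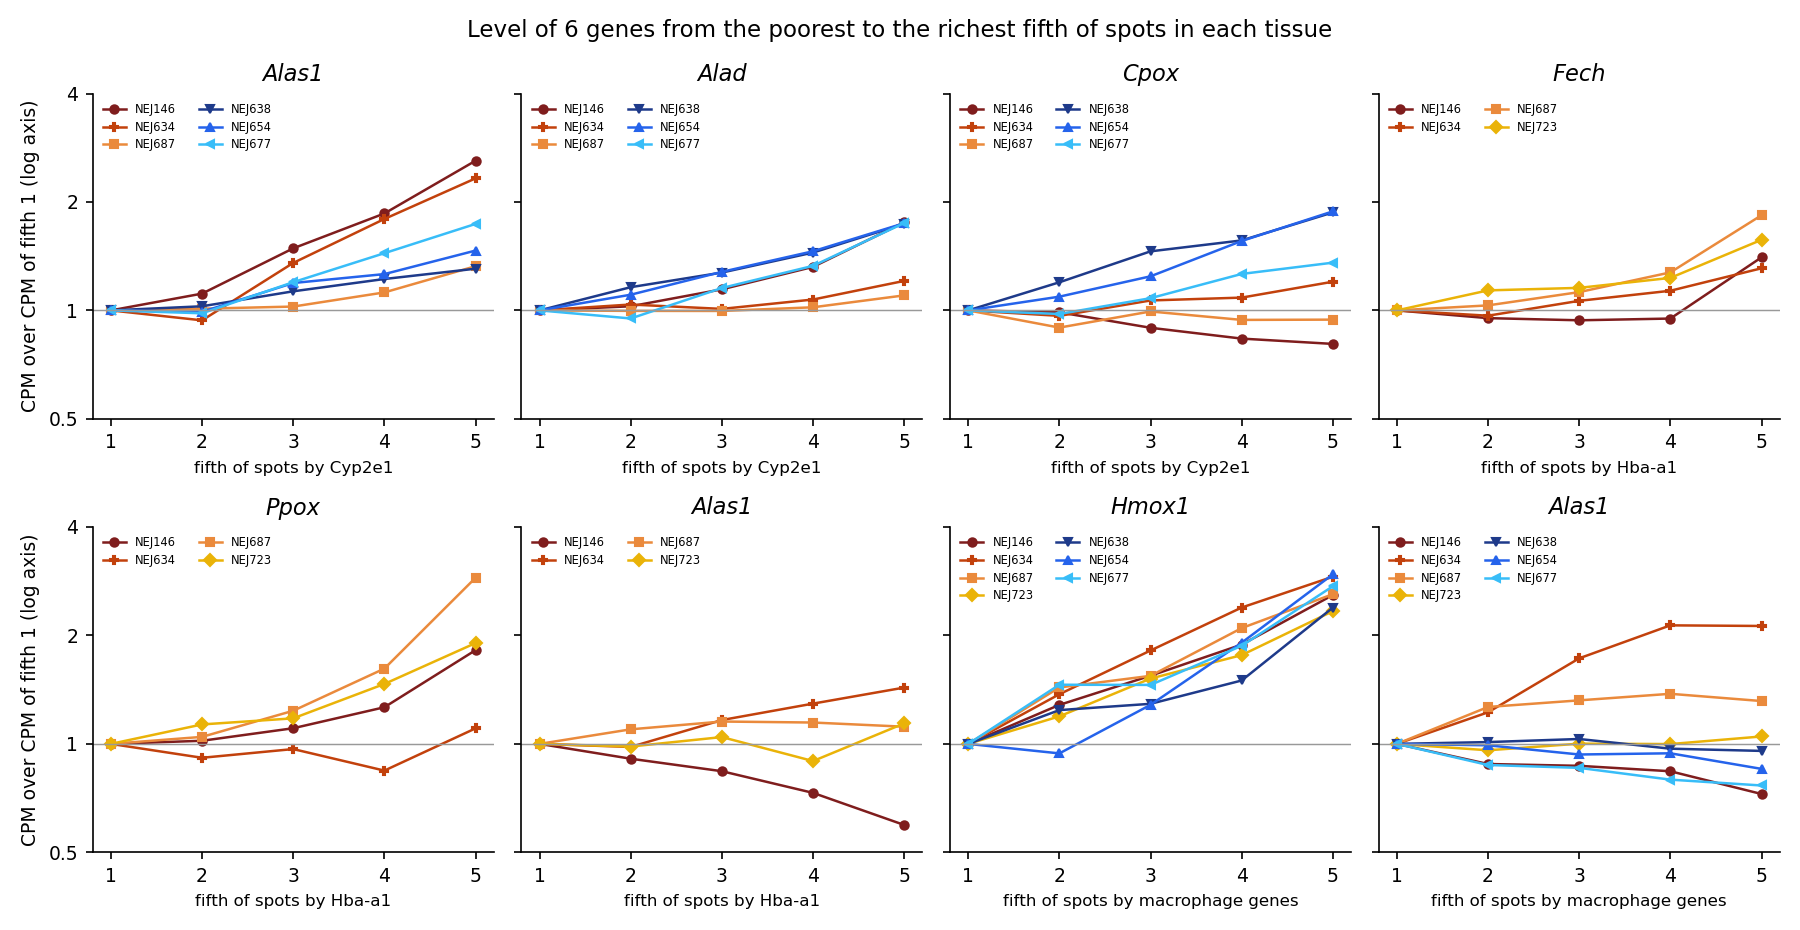
Level of *Alas1*, *Alad*, *Cpox*, *Fech*, *Ppox* and *Hmox1* in 5 equal classes of spots, from the poorest (1) to the richest (5) in the splitting gene or list named under each panel, divided by the level of class 1 (vertical axis, log scale); lines are tissues that entered the fit. The last class lies above the first for *Hmox1* by macrophage genes in all 7 tissues and for *Alas1* by *Cyp2e1* in all 6, and *Alas1* by *Hba-a1* ends below 1 in NEJ146 and above it in NEJ634.

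Correlations over single spots, with depth and section removed (partial Spearman's rho), gave a description of the same relations in each tissue. The points share library and depth, counts are sparse and spots are not replicates, so no p was computed and weak values are not read as findings. *Alas1* had a rho with *Cyp2e1* of 0.37 in NEJ146, 0.30 in NEJ634, 0.29 in NEJ677, 0.27 in NEJ638, 0.13 in NEJ654 and only 0.06 in NEJ687. *Alad* had 0.29 in NEJ654, 0.27 in NEJ677, 0.23 in NEJ638 and 0.21 in NEJ146, and 0.07 and 0.03 in NEJ634 and NEJ687. Of the 24 pairs of a gene and a reference, 5 were positive in every tissue with a value. These were *Alas1*, *Alad*, *Urod* and *Fech* with *Cyp2e1* and *Hmox1* with the macrophage genes (rho from 0.11 to 0.25). In NEJ687 the values of *Fech* and *Urod* were only 0.01 and 0.04. The share over all genes was not computed, so the count is a description only. When each spot was summed with its neighbours, *Urod* with *Cyp2e1* left this set. *Hmox1* with *Hba-a1* and *Ppox* with the macrophage genes then joined it.

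With *Hba-a1*, *Alas1* had a rho of -0.16 in NEJ146 and 0.14 in NEJ634, and *Fech* 0.11 in NEJ146, 0.10 in NEJ634, 0.19 in NEJ687 and 0.18 in NEJ723. *Ppox* had 0.24 in NEJ687 and -0.01 in NEJ634. *Alas2* had 0.53 in NEJ146, 0.40 in NEJ687, 0.37 in NEJ723 and 0.25 in NEJ634 with *Hba-a1*. With *Cyp2e1* it had -0.12 in NEJ146, -0.02 in NEJ687, 0.12 in NEJ634, 0.11 in NEJ638, 0.12 in NEJ654 and 0.12 in NEJ677. In the named livers, where 12.6 to 22.4% of spots had an *Hba-a1* UMI, values with *Hba-a1* near 0 say little and are not read here.

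When each spot was summed with its neighbours, the rho of *Alas1* with *Cyp2e1* was 0.65 in NEJ146, 0.66 in NEJ634, 0.45 in NEJ677, 0.37 in NEJ638, 0.23 in NEJ687 and 0.27 in NEJ654. That of *Alad* was 0.45, 0.18, 0.44, 0.38, 0.18 and 0.52 in the same order. In NEJ723, which had no value with *Cyp2e1* by single spot, the summed rho was 0.0074 for *Alas1* and 0.026 for *Alad*. The rho of *Alas1* with the macrophage genes in NEJ634 was 0.67 with neighbours summed and 0.32 by single spot, and that of *Hmox1* was 0.50 and 0.25. In NEJ634 *Alas1* thus followed the *Hba-a1*, *Cyp2e1* and macrophage references alike, with log2 differences of 0.30, 0.89 and 0.57. Spots that neighbour each other share RNA that spreads on the slide, so the summed values are not independent points.

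**Figure D4:**
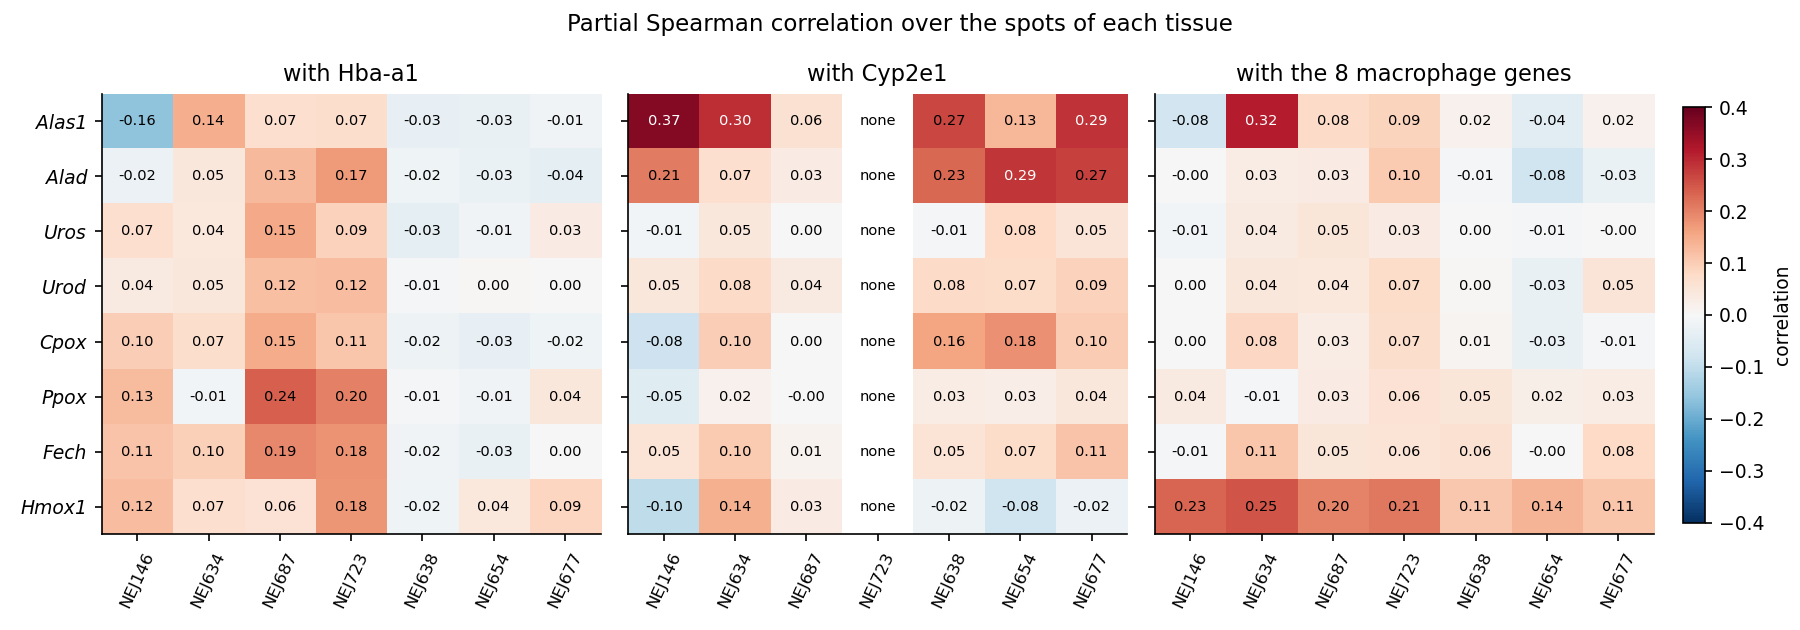
Partial Spearman's rho over the tissue spots of each tissue (columns) between each of the 8 genes (rows) and *Hba-a1*, *Cyp2e1* or the sum of 8 macrophage genes, with depth and section removed; colour runs from -0.4 to 0.4 and "none" marks a tissue with too few spots holding a *Cyp2e1* UMI. The row of *Hmox1* is positive throughout with the macrophage genes, and *Alas1* with *Cyp2e1* reaches 0.37 in NEJ146.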

How the data were processed

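Spatial libraries of 10 sections from 7 tissues were analysed. The authors deposited UMI counts per gene and spot (Space Ranger 1.3 with mm10, and Cell Ranger 6.0 for NEJ146, by the submitters' processing notes; the file headers name Cell Ranger and the methods Space Ranger V1.0; the NEJ146 build is not given in the sources used here). Tissue positions deposited with the 6 other sections gave their tissue spots. For NEJ146, spots with at least 8000 UMIs were used, and neighbours came from the same barcodes on the other slides. The labels give no separate animals for the 4 NEJ146 sections, which were summed. CPM is UMIs per 1000000 UMIs of tissue spots. Poisson intervals are exact, at 95%, and cover counting error only.

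For the splits, spots were ranked within 10 depth strata of a section, and the rich 25% was summed apart from the rest. A tissue entered with a UMI of the splitting gene or list in 25% of its spots. edgeR 4.0.16 (R 4.3.3, limma 3.58.1) tested the counts with TMM, a tissue block, genes of a mean of at least 1 CPM, and Benjamini-Hochberg adjusted p under 0.05. Since both classes of a split come from the same tissue, tissue was the pairing. Neighbours in an order of tissues were called separated when log2(CPM + 1), with a pseudocount of 1, differed by over 2 times √2 times the larger of the section SD and the counting error. DESeq2 1.42.0 was an alternative. The scripts were tested on simulated data. Correlations and figures used Python 3.11.15, scipy 1.17.1 and matplotlib 3.10.9.

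The genes, lists and splits were chosen with earlier results of these data known. The named genes are the 8 members; of each of 5 partner lists up to 4 that passed the test, else the one with the smallest adjusted p; and the 3 nearest genes of each member. *Serpina3c* and *Thrsp* were named after their values were seen. Markers *Ahsp* and *Tf* were not matched.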

Additional observations from a re-analysis of the deposited data

Results flagged for a closer look

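*Alad* and *Urod* each had 1 section of NEJ146 far from the other 3. *Alad* stood at 62.8 CPM in section 4 against 75.4 to 76.9 CPM, and *Urod* at 41.3 CPM in section 4 against 48.7 to 49.9 CPM. Chance flags about 5% of such groups, and 32 were looked at.

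*Alas1* in the split by *Hba-a1* was 0.30 higher on the log2 scale in the rich spots of NEJ634 and 0.55 lower in those of NEJ146, where all 4 sections were below 0. *Hmox1* in the split by *Cyp2e1* was 0.49 higher in NEJ634 and 0.39 lower in NEJ146. Neither difference between the tissues was tested, since NEJ634 has 1 section.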

How the results depend on the processing

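The counts of genes called moved with the settings. In the *Hba-a1* split 132 genes were higher and 8 lower, against 260 and 93 with no filter, 45 and 1 at a mean of at least 10 CPM, 67 and 2 with the richest 50% of spots and 76 to 137 and 2 to 20 with a tissue or section left out; 40 were lower with DESeq2, 3 without depth strata, 2 with the other list, 5 with it in the same 4 tissues and 22 with thinned spots. In the *Cyp2e1* split 150 and 35 became 422 and 114 with DESeq2, 271 and 92 with no filter, 87 and 12 at 10 CPM, 93 and 8 with the richest 50%, 91 and 18 without strata, 852 and 905 in the named livers, 9 and 0 in the named tumours and 54 to 192 and 1 to 72 with a tissue or section left out; 22 were lower with the other list and 57 with thinned spots. In the macrophage split 539 and 32 became 210 and 6 at 10 CPM, 353 and 79 with the other list, 297 and 145 in the named livers and 343 to 729 and 11 to 195 with a tissue or section left out; 332 were higher with thinned spots, and 119 were lower with no filter, 13 with the richest 50%, 59 without strata and 5 in the named tumours. With no replicate block (tissue pairing ignored) edgeR called 0 genes in each split, and 74, 44 and 119 were higher and 0, 23 and 1 lower at an unadjusted p under 0.05. With TMM 5 of the 8 genes did not overlap between the named sets, against 3. Of all 8021 genes, 30.4% lay higher and 32.0% lower in all 3 named livers with TMM, against 18.1% and 44.1% by CPM. Of the spot correlations, 8 pairs were positive in every tissue with the other list and 9 by plain Spearman, against 5.

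*Hmox1* with the macrophage genes was called in 25 of 26 settings, *Fech* and *Hmox1* with *Hba-a1* in 17 of 22 each, and *Alad* and *Alas1* with *Cyp2e1* in 18 and 15 of 25. With the richest 50% the adjusted p (edgeR) was 0.091 and 0.193 for *Fech* and *Hmox1* and 0.071 and 0.063 for *Alas1* and *Alad*. *Fech* was also lost with thinned spots (edgeR adjusted p = 0.069), *Alad* with the other pericentral list (0.094) and *Alas1* without depth strata (0.080) and at a mean of 10 CPM (0.058). Other calls were gained. With *Hba-a1*, *Ppox* was called by DESeq2 (adjusted p = 0.0029), with no filter (0.0037), without NEJ634 (0.029) and with thinned spots (0.0014), and *Uros* by DESeq2 (0.027) and with no filter (0.015). DESeq2 called 1.51% of all genes higher and 0.315% lower there, and also called *Urod* with *Cyp2e1* (adjusted p = 0.026). Some values that were not called changed sign. *Alas1* with *Hba-a1* ran from -0.18 without NEJ634 to 0.13 without NEJ146 and became 0.0046 with the richest 50%. *Ppox* with *Cyp2e1* ran from -0.087 without NEJ634 to 0.0077 without NEJ146 and became 0.012 with the richest 50%, and *Hmox1* 0.039 in the named tumours. With the macrophage genes *Fech* ran from -0.048 without NEJ634 to 0.0041 without NEJ723 and became 0.0024 at 10 CPM, 0.0026 without NEJ654, 0.015 with the richest 50% and 0.013 with the other list; *Alas1* ran from -0.15 without NEJ634 to 0.010 without NEJ146 and became 0.043 with the richest 50%, 0.014 with the other list and 0.074 in the named tumours; *Uros* became 0.010 with the richest 50% and 0.0069 in the named tumours; and *Urod* became 2.06e-05 with the other list. The causes were not tested. *Uros* in NEJ723 rests on 324 UMIs, the fewest of any of the 8 genes in a tissue.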
